A study of Mus musculus with 12 samples.

Results

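Glomeruli of diabetic mice that lacked Dach1 in podocytes (the KO + STZ group, 3 libraries) were compared with glomeruli of untreated control mice (the control baseline group, 3 libraries). These 6 of the 12 RNA-seq libraries of the series were chosen by their labels alone, and the comparison was read on the 13475 genes listed for both. All mice were on a C57BL/6 background, and each library came from a different mouse. KO + STZ mice carried a podocyte-specific DACH1 knockout and received streptozotocin (STZ) by intraperitoneal injection at 50 µg per g per day on 5 consecutive days, with RNA taken 10 days later. Control baseline mice had the control genotype, were not injected and were 10 weeks old. The other 6 libraries, 3 of untreated knockouts (KO baseline) and 3 of STZ-injected controls (control + STZ), served to read each gene step by step. The titles of the control + STZ libraries carry the prefix hetN, those of control baseline Ctrl, and the labels do not say what hetN means or whether both control groups share a genotype. The sources used here do not give the promoter that drove the deletion, the alleles of the controls, blood glucose or the age of the STZ mice. Glomeruli were collected whole, after perfusion with magnetic beads, so each library held podocytes together with endothelial, mesangial and other cells.

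The glomerulus is the filter of the kidney. Its capillaries are lined by fenestrated endothelium, held together by mesangial cells and wrapped on the outside by podocytes, whose foot processes meet at slit diaphragms over a shared basement membrane. Dach1 encodes dachshund-1, a nuclear cofactor that acts on transcription together with the EYA and SIX-family proteins and is made in podocytes. STZ destroys the insulin-producing beta cells of the pancreas, and low repeated doses are a common model of type I diabetes.

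The comparison changed genotype, STZ treatment and library arm together, and arm and treatment cannot be told apart. KO + STZ libraries held 72204860 to 78631380 counts, against 23305198 to 24925846 in control baseline libraries. The STZ tables listed 16293 genes, each with at least 100 counts in some STZ library, whereas the baseline tables listed 13480, of which 362 never reached 100. From Xist and Ddx3y, 1 KO + STZ mouse was female and 2 were male, against 2 females and 1 male among control baseline mice. Replicate 1 of KO + STZ carried the most proximal tubule RNA of the 6 libraries, with a summed level of 13777 CPM (counts scaled to library size) over 25 tubule genes, against 3772 and 3803 CPM in its 2 group mates and 3862 to 7414 CPM in control baseline. No pair of replicates agreed within sampling noise. The p-values measure the spread between 3 mice a group.

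Dach1 (chromosome 14, 97786846 to 98169765, GRCm38.p6) was at 55.8, 65.9 and 67.01 CPM in KO + STZ libraries, against 162, 106 and 188 CPM in control baseline libraries. All 3 knockouts lay below all 3 controls, and the control value of replicate 2 was the lowest of its group. The log2 fold change was -1.27 (SE 0.19, adjusted p = 0.00382, edgeR's quasi-likelihood test over all genes). The fall was similar in the STZ-matched step, at -1.41 (adjusted p = 0.00394), while STZ in controls moved Dach1 by 0.14 (adjusted p = 0.773). In whole glomeruli, fewer cells of a type and less RNA per cell cannot be told apart, and which cells gave the remaining Dach1 counts was not tested.

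KO + STZ glomeruli differed from control baseline glomeruli in 959 of 13475 genes (7.12%) at an adjusted p under 0.05, with 576 genes higher (4.27%) and 383 lower (2.84%). The change exceeded 2-fold in 341 of them and 4-fold in 84, and 64 of these 84 were higher. Values of the 2 groups did not overlap for any of the 959, as was the case for 31.5% of all genes tested. For a called gene, non-overlap therefore adds no separate support. The median log2 fold change over all genes was 0.028. Leaving out 1 library changed the count: without replicate 1, 2 or 3 of KO + STZ it was 530, 787 or 351, and without replicate 1, 2 or 3 of control baseline it was 468, 436 or 531. Below, a call is termed fragile where leaving out 1 of these 6 libraries took its adjusted p past 0.05, and the largest such p is given. The term does not cover the libraries outside the comparison, which the fit shares. Without KO baseline replicate 2 the count was 691, and without KO baseline replicate 1 it was 1047. With sex as a covariate 641 genes passed, and with the proximal tubule level as a covariate 1664 did.

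**Figure D1:**
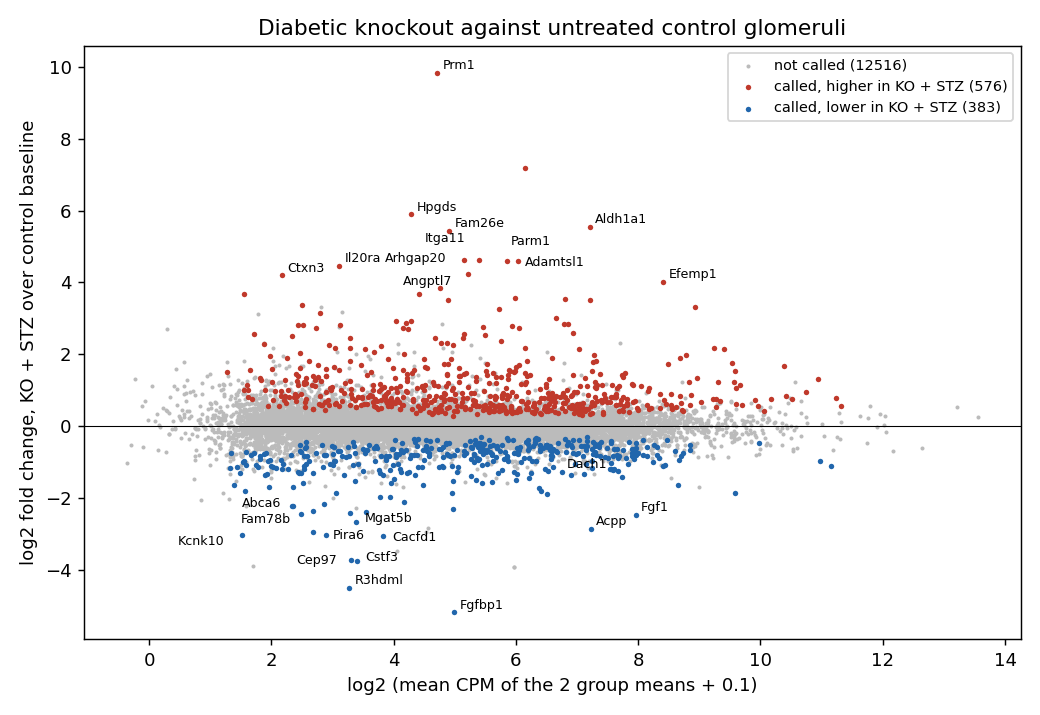
Log2 fold change of KO + STZ over control baseline (vertical axis) against the mean level of the 2 groups, log2 of CPM + 0.1 (horizontal axis), with 1 point for each of 13475 genes. Red points are the 576 genes called higher, blue points the 383 called lower and grey points the rest; Prm1 stands furthest above 0 and Fgfbp1 is the lowest called gene.

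Of the 12 called genes furthest above control baseline, Adamtsl1, Efemp1, Itga11 and Angptl7 encode matrix, adhesion or secreted proteins, and Ogn, which lay further down the ranking, is given beside them. Adamtsl1, a secreted matrix glycoprotein of the ADAMTS-like family without a protease domain, was at 116, 119.6 and 141 CPM in KO + STZ libraries, against 5.63, 5.28 and 4.68 CPM in control baseline libraries. Its log2 fold change was 4.59 (SE 0.14, adjusted p = 3.46e-08, edgeR). Efemp1, which encodes the elastic-fibre glycoprotein fibulin-3, was at 759, 638 and 516 CPM in KO + STZ libraries, against 34.7, 23.6 and 60.6 CPM in control baseline libraries (4.01, SE 0.42, adjusted p = 0.000441). Both genes had groups far apart, and the lowest KO + STZ value lay several times above the highest control value. Itga11, the alpha-11 chain of a collagen-binding integrin, was at 72.4, 69.8 and 99.7 CPM in KO + STZ libraries, against 3.34, 2.78 and 3.69 CPM in control baseline libraries (4.63, SE 0.45, adjusted p = 0.000275). Ogn, the small leucine-rich proteoglycan osteoglycin, was at 306, 259.7 and 252 CPM in KO + STZ libraries, against 12.7, 20.7 and 37.8 CPM in control baseline libraries (3.52, SE 0.45, adjusted p = 0.00137). Angptl7, a secreted angiopoietin-like protein, was at 72.5, 38.8 and 99.2 CPM in KO + STZ libraries, against 4.07, 2.66 and 4.43 CPM in control baseline libraries (4.24, adjusted p = 0.000705). Angptl7 varied more among the knockouts than Adamtsl1 did, and groups without overlap were required of all 12.

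Aldh1a1 and Hpgds, a pair of enzyme genes, were also among the 12. Aldh1a1, the aldehyde dehydrogenase that makes retinoic acid from retinaldehyde, was at 194, 351 and 323 CPM in KO + STZ libraries, against 6.76, 5.78 and 6.09 CPM in control baseline libraries. Its log2 fold change was 5.54 (SE 0.36, adjusted p = 2.07e-05, edgeR). Hpgds, the haematopoietic prostaglandin D synthase, was at 17.5, 50.2 and 46.9 CPM in KO + STZ libraries, against 0.607, 0.694 and 0.621 CPM in control baseline libraries (5.89, SE 0.53, adjusted p = 0.000154). For both genes the lowest KO + STZ value was that of replicate 1, which also carried the most tubule RNA, and it still exceeded every control value.

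The other 6 of the 12 had diverse roles. Prm1, which encodes protamine 1, a protein that packs DNA in sperm heads, had 11711 counts over the 3 KO + STZ libraries and 4 over the 3 control baseline libraries. The depth-scaled ratio was 953, with a 95% exact binomial interval from 372 to 3498 for counting error alone. Counts per gene do not show which stretch of Prm1 the reads covered. Fam26e, a member of the calcium homeostasis modulator channel family, was at 63.4, 39.7 and 72.8 CPM in KO + STZ libraries, against 1.52, 1.46 and 1.08 CPM in control baseline libraries (5.43). Parm1, a mucin-like membrane protein, was at 127, 87.7 and 118 CPM in KO + STZ libraries, against 5.03, 4.63 and 4.06 CPM in control baseline libraries (4.60). Arhgap20, a GTPase-activating protein, was at 64.3, 74.3 and 66.1 CPM in KO + STZ libraries, against 1.73, 3.04 and 3.52 CPM in control baseline libraries (4.62). All 3 had groups that stood well apart. Il20ra, a receptor chain for the interleukin-20 family, averaged 16.3 ± 6.12 CPM in KO + STZ and 0.730 ± 0.222 CPM in control baseline (SD, n = 3 each, log2 fold change 4.46). Ctxn3, the small membrane protein cortexin 3, averaged 8.34 ± 1.87 CPM in KO + STZ and 0.453 ± 0.148 CPM in control baseline (SD, n = 3 each, log2 fold change 4.20). Adjusted p-values of these 6 genes ran from 2.93e-07 for Prm1 to 0.00651 for Ctxn3 (edgeR). One clone-named gene, C130060K24Rik, ranked between Prm1 and Hpgds at a log2 fold change of 7.17 and was passed over by the naming rule.

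**Figure D2:**
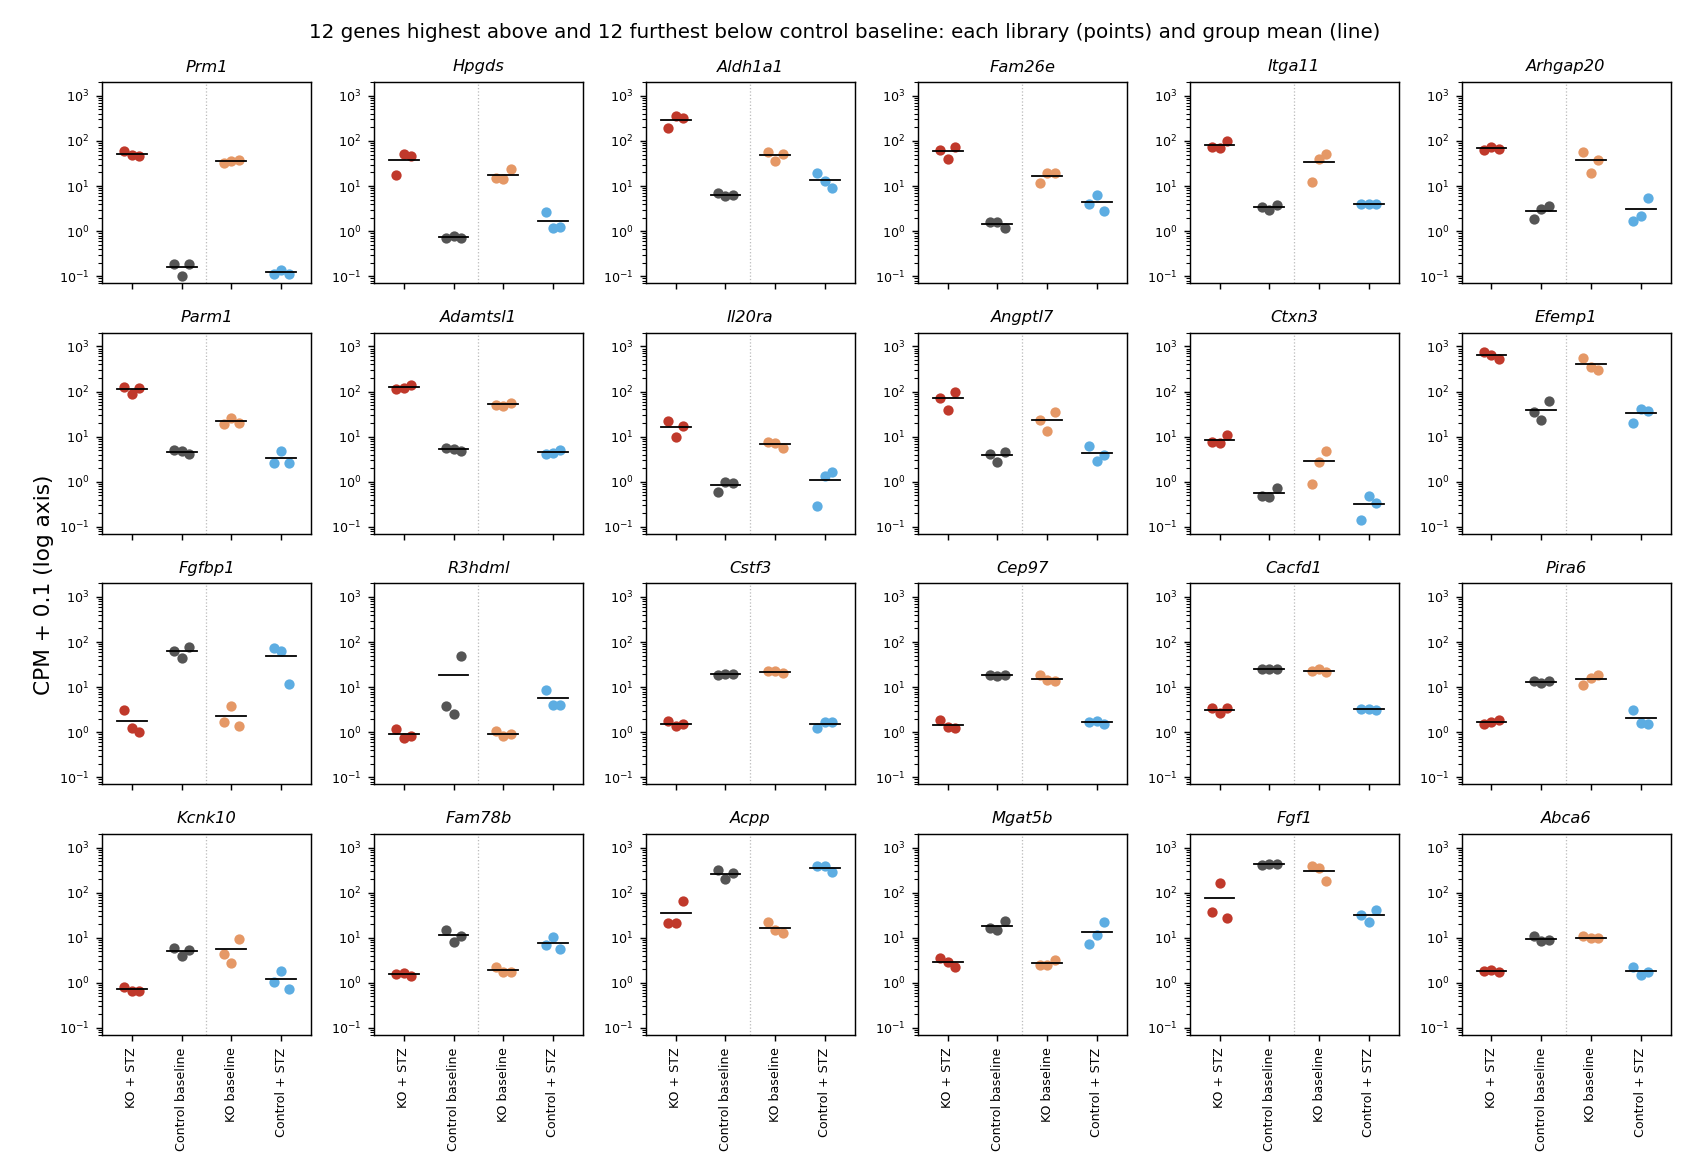
CPM + 0.1 on a log axis for the 12 genes furthest above and the 12 furthest below control baseline among called genes, with 1 point per library and a line at the group mean. Left of the dotted line are KO + STZ and control baseline, right of it KO baseline and control + STZ; Prm1 runs from 46.8 to 60.0 CPM in KO + STZ and is at 0.0867 CPM or less in control baseline, while Cstf3 is low in both STZ groups.

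Read as 2 steps, from control baseline to control + STZ and from there to KO + STZ, all 12 of the largest rises lay mainly on the knockout step. For Adamtsl1 the knockout step was 4.83 (adjusted p = 2.08e-08) and the STZ step -0.24 (adjusted p = 0.406). For Efemp1 the values were 4.28 (adjusted p = 0.000495) and -0.27 (adjusted p = 0.778). The largest STZ steps among the 12 were those of Fam26e at 1.66 (adjusted p = 0.0831), Hpgds at 1.28 (adjusted p = 0.269) and Aldh1a1 at 1.16 (adjusted p = 0.132), and none of them passed. Over all genes the knockout step passed in 293 (2.17%) and the STZ step in 69 (0.512%). These steps share libraries with the combined difference, and they add up to it by construction. By Xist and Ddx3y all 3 control + STZ mice were male, against 1 of 3 control baseline mice, so the STZ step also carried sex. Both steps treat the 2 control groups as 1 genotype, which the labels do not settle. The split also depends on the path, and the other path runs from control baseline to KO baseline and then to KO + STZ. On it Aldh1a1 rose by 2.96 and then by 2.58 (adjusted p = 0.00417 for the latter, edgeR). Adamtsl1 rose by 3.31 and then by 1.28 (adjusted p = 0.00101), and Arhgap20 by 3.77 and then by 0.85 (adjusted p = 0.399).

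Most genes furthest below control baseline fell into a pair of patterns. In the first, the loss followed the genotype. Fgfbp1, a secreted carrier that releases fibroblast growth factors from the matrix, was at 3.04, 1.14 and 0.936 CPM in KO + STZ libraries, against 61.97, 43.9 and 79.4 CPM in control baseline libraries (-5.18, SE 0.77, adjusted p = 0.00329, edgeR). Acpp, prostatic acid phosphatase, was at 21.3, 21.3 and 65.6 CPM in KO + STZ libraries, against 324, 196 and 267 CPM in control baseline libraries (-2.86, SE 0.44, adjusted p = 0.00414). The groups of both genes did not overlap, which the naming rule required. KO + STZ replicate 3 was the highest of the knockouts for Acpp, and without it the log2 fold change was -3.62, while that of Fgfbp1 was -5.89 without KO + STZ replicate 1. Fam78b was at 1.46, 1.59 and 1.28 CPM in KO + STZ libraries, against 14.7, 8.02 and 10.9 CPM in control baseline libraries (-2.96, adjusted p = 0.000214). Mgat5b, a glycosyltransferase that branches sugar chains, was at 3.48, 2.74 and 2.13 CPM in KO + STZ libraries, against 15.99, 14.5 and 22.9 CPM in control baseline libraries (-2.68, adjusted p = 0.00250). On the knockout step these 4 genes changed by -4.86, -3.28, -2.39 and -2.26 in that order, all past the threshold, and on the STZ step by no more than -0.56 (Fam78b, adjusted p = 0.340). R3hdml was at 1.05, 0.634 and 0.743 CPM in KO + STZ libraries, against 3.64, 2.47 and 48.7 CPM in control baseline libraries. Its log2 fold change of -4.49 (adjusted p = 0.0259) rested largely on control baseline replicate 3, without which it was -1.93 (adjusted p = 0.0295). For that reason R3hdml was assigned to neither pattern. The call of R3hdml was fragile, lost without any of 3 libraries taken singly, with an adjusted p of up to 0.115 (without KO + STZ replicate 3).

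In the second pattern the loss was the same in both genotypes and lay between the arms. Cstf3, a subunit of the cleavage stimulation factor that helps form mRNA ends, was at 1.64, 1.31 and 1.40 CPM in KO + STZ libraries, against 18.3, 19.8 and 19.9 CPM in control baseline libraries (-3.74, SE 0.15, adjusted p = 3.76e-07, edgeR). Control + STZ libraries held 1.16, 1.60 and 1.57 CPM and KO baseline libraries 22.3, 22.9 and 20.5 CPM. So the 6 STZ libraries lay together and the 6 baseline libraries lay together, with a narrow spread in each. Cep97, a centrosome protein that limits cilium growth, was at 1.73, 1.22 and 1.16 CPM in KO + STZ libraries, against 18.2, 17.9 and 18.3 CPM in control baseline libraries (-3.72, adjusted p = 2.52e-06). Cacfd1, a calcium channel homologue of the fly gene flower, was at 3.27, 2.52 and 3.30 CPM in KO + STZ libraries, against 25.5, 25.01 and 24.8 CPM in control baseline libraries (-3.05, adjusted p = 4.05e-07). Abca6, a lipid transporter of the ATP-binding cassette family, was at 1.72, 1.81 and 1.60 CPM in KO + STZ libraries, against 10.6, 8.33 and 8.90 CPM in control baseline libraries (-2.44, adjusted p = 3.62e-05). Each of these 4 genes had nearly the whole change on the STZ step, at -3.74, -3.54, -3.001 and -2.44. Pira6, of the paired immunoglobulin-like receptors, stood at -3.04, but it belongs to a family of near-identical genes and its counts are uncertain. Kcnk10, the potassium channel TREK-2, stood at -3.01 (adjusted p = 0.00551) and at -3.79 with the STZ libraries thinned to baseline depth. Since STZ, library depth and the filter of the tables all changed with the arm, their parts in these values cannot be told apart.

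Fgf1, fibroblast growth factor 1, was also lower in the STZ arm, with a library of each arm in between. It was at 36.3, 166 and 27.8 CPM in KO + STZ libraries, against 405, 430.5 and 426 CPM in control baseline libraries. Replicate 2 of KO + STZ lay between its group mates and the controls. The log2 fold change was -2.46 (SE 0.61, adjusted p = 0.0369, edgeR) and -3.71 without that replicate. The call of Fgf1 was fragile, lost without any of 5 libraries taken singly, with an adjusted p of up to 0.115 (without KO + STZ replicate 1). Control + STZ libraries were at 31.8, 22.2 and 40.9 CPM and KO baseline libraries at 389.7, 343 and 180.3 CPM. So Fgf1 was low in 5 of the 6 STZ libraries, and Fgfbp1, whose product binds FGF1 among other factors, was low in all 6 knockout libraries.

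**Figure D3:**
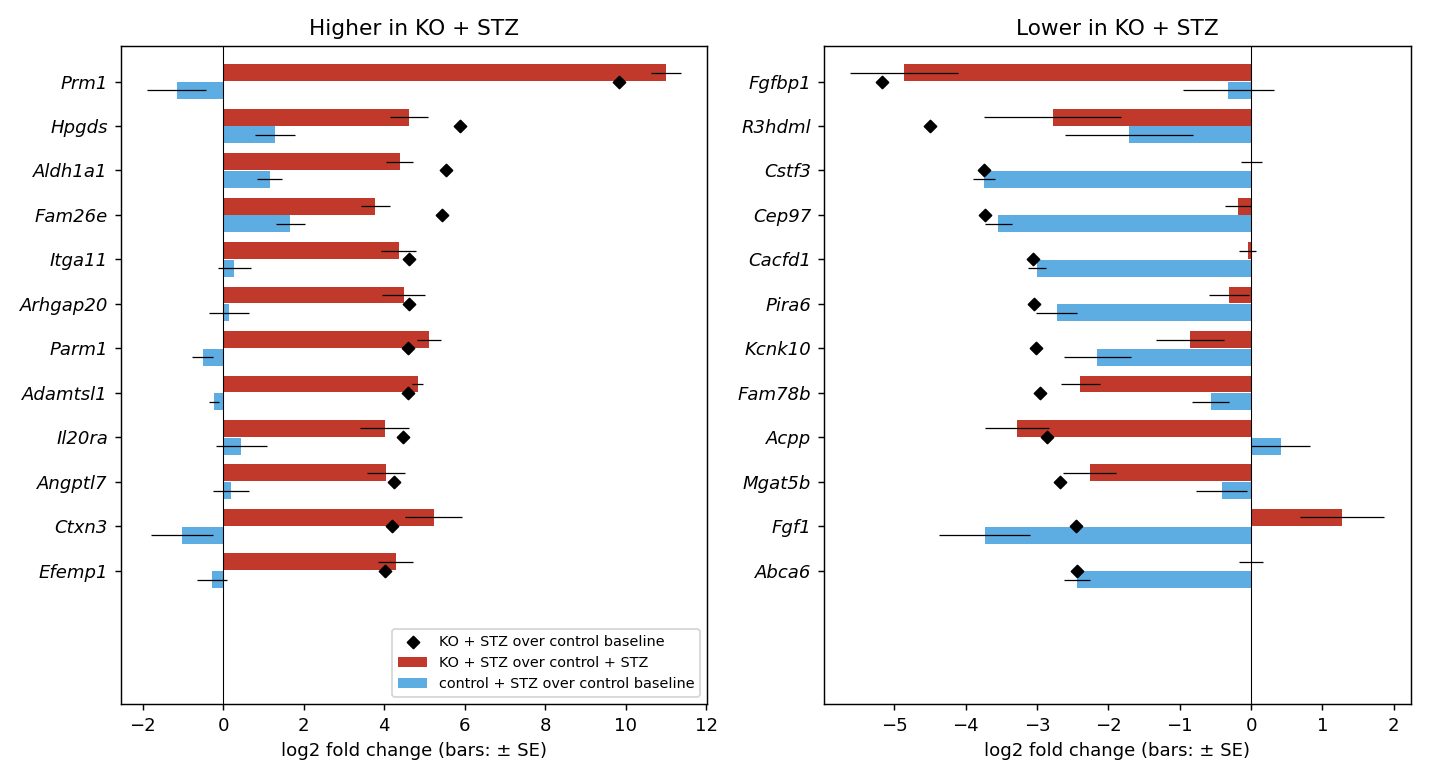
Log2 fold changes of the 12 genes furthest above (left panel) and the 12 furthest below (right panel) control baseline. Red bars are KO + STZ over control + STZ, blue bars control + STZ over control baseline (lines: SE), and the diamond is their sum, KO + STZ over control baseline; the higher genes are carried by red bars, and Cstf3, Cep97, Cacfd1, Pira6, Kcnk10, Fgf1 and Abca6 by blue bars.

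The 6 libraries outside the comparison form a pair of groups that shares no mouse with it. Its test came from the same 12-library fit, so both pairs share an estimate of the spread. By Xist and Ddx3y, 2 KO baseline mice were female and 1 was male, while all 3 control + STZ mice were male. By its labels, KO baseline over control + STZ has the same difference, knockout over control, and the opposite difference in STZ and arm. Whether both control groups share a genotype is not given, and the pair also differs in sex. In that pair 384 genes passed (2.85%), 175 higher (1.3%) and 209 lower (1.55%). Of the 576 genes higher in KO + STZ, 56 also passed higher in the second pair (9.72% of the 576 and 32.0% of the 175) and 20 passed lower there (3.47% of the 576 and 9.57% of the 209). Of the 383 genes lower in KO + STZ, 35 also passed lower (9.14% of the 383 and 16.7% of the 209) and 67 passed higher (17.5% of the 383 and 38.3% of the 175). The other 500 higher and 281 lower genes passed only in the main comparison, which does not show that they were unchanged in the second pair. Over all genes the sign was the same in both pairs for 41.9%. With each pair fitted on its own 6 libraries, 81 genes passed in the second pair. The counts of 56, 20, 35 and 67 then became 17, 1, 10 and 15. With sex as a covariate they became 33, 1, 15 and 23. With 1 of the 12 libraries left out they ranged over 32 to 51, 1 to 20, 13 to 40 and 27 to 56.

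The 56 genes higher in both pairs had a median log2 fold change of 2.32 in KO + STZ over control baseline and 1.39 in KO baseline over control + STZ. They were led by Prm1, Arhgap20, Efemp1, Ctxn3, Adamtsl1, Hpgds, Itga11 and Ogn. For Efemp1 the second pair gave 568, 346 and 296 CPM in KO baseline libraries, against 20.4, 41.1 and 36.9 CPM in control + STZ libraries (3.62, adjusted p = 0.00150). The 35 genes lower in both pairs were led by Fgfbp1, Acpp, Slc26a7, Mgat5b, Fam78b, Nectin4, Top1mt and Cyp2s1. Slc26a7, an anion exchanger, was at 3.49, 3.97 and 3.70 CPM in KO + STZ libraries, against 17.5, 12.7 and 27.996 CPM in control baseline libraries (-2.38, adjusted p = 0.000705), and at -2.82 in the second pair. Top1mt, the mitochondrial topoisomerase I, averaged 37.7 ± 14.3 CPM in KO + STZ and 132 ± 23.5 CPM in control baseline (SD, n = 3 each, log2 fold change -1.81, adjusted p = 0.00139) and was at -3.04 in the second pair. Nectin4, a cell adhesion molecule, and Cyp2s1, a cytochrome P450, stood at -1.96 and -1.53 in KO + STZ. The call of Nectin4 was fragile, lost without any of 5 libraries taken singly, with an adjusted p of up to 0.0779 (without control baseline replicate 3).

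The 20 genes higher in KO + STZ and lower in the second pair had smaller changes, with medians of 0.75 and -0.73. So they were high in STZ libraries of either genotype, but those libraries also came from more males. With sex as a covariate this class held 1 gene. Cd55, which shields cells from complement, was at 298, 323 and 367 CPM in KO + STZ libraries, against 143, 144 and 150.2 CPM in control baseline libraries (1.17, SE 0.11, adjusted p = 0.000166, edgeR). Control + STZ libraries were at 358, 326 and 287 CPM, which overlapped KO + STZ. Cd59b, another complement inhibitor, stood at 0.74, Hnmt, which inactivates histamine, at 0.77, Il18, an epithelial and immune cytokine, at 0.75, and Ahnak, a large scaffold protein, at 1.16. Tk1 (thymidine kinase) at 0.91, Hist1h1c (a linker histone) at 0.85 and Extl1 (a heparan sulfate glycosyltransferase) at 1.03 completed the 8 that led this set. The calls of Cd59b (adjusted p = 0.0588 without KO + STZ replicate 3), Il18 (0.112 without KO + STZ replicate 3), Tk1 (0.0588 without KO + STZ replicate 3) and Extl1 (0.109 without control baseline replicate 1) were fragile. The 67 genes lower in KO + STZ and higher in the second pair had medians of -0.98 and 0.93, and were led by Cstf3, Cep97, Pira6, Cacfd1, Fgf1, Abca6, Kcnk10 and Arpp21.

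**Figure D4:**
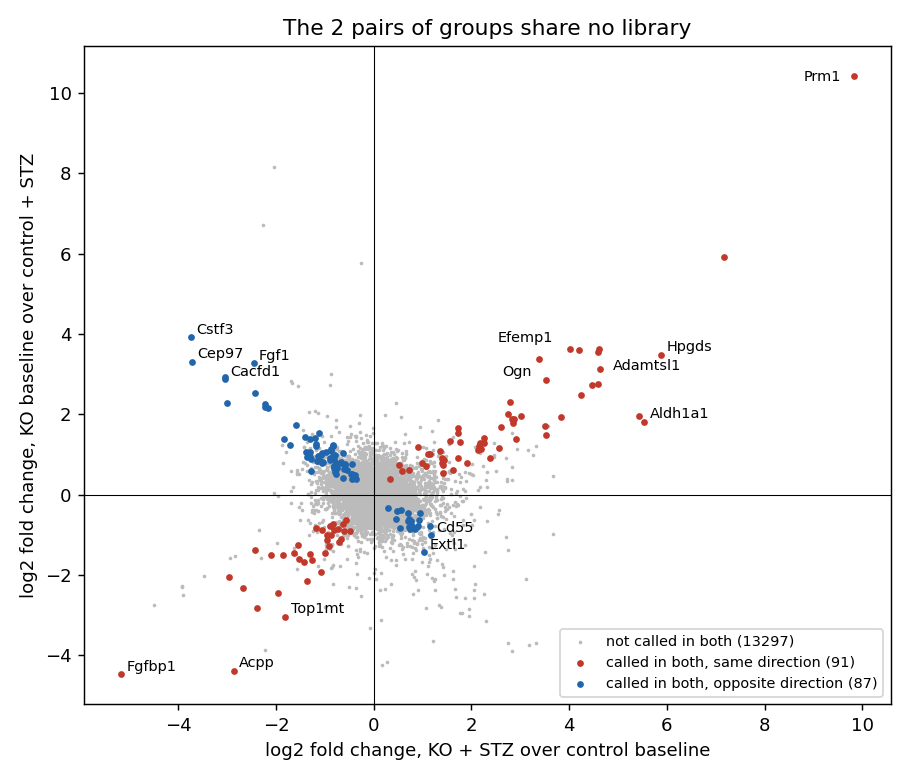
Log2 fold change of KO + STZ over control baseline (horizontal axis) against that of KO baseline over control + STZ (vertical axis), 1 point per gene. The 91 red genes passed in both pairs in the same direction and the 87 blue genes in opposite directions; red genes run from Fgfbp1 at the lower left to Prm1 at the upper right, and blue genes from Cstf3 at the upper left to Extl1 at the lower right.

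For the genes called in both pairs, the 250 bases before their annotated starts were read from RefSeq (GRCm38.p6), and 1 window is shown for each of 4 of them. Prm1 and Ogn were higher and Acpp was lower without Dach1 in both pairs, and Cstf3 was low in the STZ arm. Letters are 5′ to 3′ on the strand of the gene, and capitals mark matches to TATAAA on either strand.
Prm1 (chr16:10796824-10797073, minus strand): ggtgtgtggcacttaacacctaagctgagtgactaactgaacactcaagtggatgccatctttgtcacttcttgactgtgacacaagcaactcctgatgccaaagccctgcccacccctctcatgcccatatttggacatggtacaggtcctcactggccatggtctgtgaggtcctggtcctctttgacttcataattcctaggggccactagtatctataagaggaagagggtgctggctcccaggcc
Ogn (chr13:49607765-49608014, plus strand): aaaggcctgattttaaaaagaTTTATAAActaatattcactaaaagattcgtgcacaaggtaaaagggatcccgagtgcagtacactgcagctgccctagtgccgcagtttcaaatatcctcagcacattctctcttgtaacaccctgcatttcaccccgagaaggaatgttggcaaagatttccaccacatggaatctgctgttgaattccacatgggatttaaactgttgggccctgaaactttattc
Acpp (chr9:104337723-104337972, minus strand): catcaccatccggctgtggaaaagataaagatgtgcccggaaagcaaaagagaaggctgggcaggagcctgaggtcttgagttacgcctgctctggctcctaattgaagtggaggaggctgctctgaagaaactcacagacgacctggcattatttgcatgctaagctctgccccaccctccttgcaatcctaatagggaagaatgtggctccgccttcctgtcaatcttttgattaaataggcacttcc
Cstf3 (chr2:104590234-104590483, plus strand): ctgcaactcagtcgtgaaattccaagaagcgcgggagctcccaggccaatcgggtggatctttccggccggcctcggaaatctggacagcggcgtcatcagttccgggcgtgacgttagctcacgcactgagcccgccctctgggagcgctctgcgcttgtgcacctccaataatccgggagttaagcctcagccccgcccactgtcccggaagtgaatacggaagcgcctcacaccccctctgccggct
GC content was 51.6% for Prm1, 42.0% for Ogn, 50.4% for Acpp and 62.8% for Cstf3, against a median of 59.6% over the windows of all tested genes. A window was found for 10396 tested genes and for 36 of the 56, 24 of the 35, 15 of the 20 and 47 of the 67 genes called in both pairs. The letters TATAAA occurred on either strand in 4 of the 36, 2 of the 24, 1 of the 15 and 5 of the 47, and in 882 of all 10396 (8.48%). The forkhead core TGTTTAC, the central letters of sites bound by forkhead factors, where human DACH1 has also been reported to bind, occurred on either strand in 0, 0, 0 and 1 of these sets, and in 290 of all 10396 (2.79%). No match says only that these letters are not in this window.

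Podocyte genes moved in both directions, and most did not pass. Of 28 markers of differentiated podocytes 8 rose and 1 fell, with a median log2 fold change of 0.21 against 0.028 over all genes, of which 4.27% rose and 2.84% fell. With 1 of the 6 compared libraries left out, 4 (without KO + STZ replicate 3 or control baseline replicate 2) to 6 rose and 0 to 2 fell. The shares of 4.27% higher and 2.84% lower over all genes are the background for every list count below. Robo2, a guidance receptor that binds nephrin through an adaptor, was at 955, 1493 and 996 CPM in KO + STZ libraries, against 383, 297 and 334 CPM in control baseline libraries (1.76, SE 0.21, adjusted p = 0.000775, edgeR). Npnt, the integrin ligand nephronectin of the podocyte basement membrane, was at 2547, 2827 and 3042 CPM in KO + STZ libraries, against 1254, 978 and 1185 CPM in control baseline libraries (1.30, adjusted p = 0.000705). Mme, the peptidase neprilysin, averaged 884 ± 125 CPM in KO + STZ and 374 ± 69.9 CPM in control baseline (SD, n = 3 each, log2 fold change 1.24, adjusted p = 0.00453). Groups did not overlap for any of them, as for all called genes. Robo2 had its change on the knockout step (1.44, adjusted p = 0.00460), and Cd55, also of the list, on the STZ step (1.15, adjusted p = 0.000843). The member that fell was Thsd7a, a podocyte membrane protein, with 225, 205 and 152 CPM in KO + STZ libraries, against 817, 435 and 564 CPM in control baseline libraries (-1.64, adjusted p = 0.0153). The call of Thsd7a was fragile, lost without either of 2 libraries taken singly, with an adjusted p of up to 0.0759 (without KO + STZ replicate 3). In the second pair of groups 1 of the 28 was higher and 11 were lower, with a median of -0.60. The summed level of the list was 49915 to 52492 CPM in KO + STZ, against 34026 to 46096 CPM in control baseline, and it was 49170 to 60569 CPM in control + STZ. Its mean log2 CPM overlapped between the groups, at 9.62 to 9.70 in KO + STZ and 9.24 to 9.62 in control baseline.

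Of 17 slit diaphragm proteins and adaptors 2 rose and 1 fell (0 to 1 and 1 with 1 of the 6 compared libraries left out), with a median of -0.059. Nphs1, which encodes nephrin, the backbone of the slit diaphragm, was at 2821, 3295 and 2964 CPM in KO + STZ libraries, against 2452, 1857 and 1868 CPM in control baseline libraries (0.56, adjusted p = 0.0412). The call of Nphs1 was fragile, lost without any of 5 libraries taken singly, with an adjusted p of up to 0.171 (without control baseline replicate 2). Nck2, an adaptor that links nephrin to actin, was at 74.3, 74.8 and 72.5 CPM in KO + STZ libraries, against 115, 94.9 and 106 CPM in control baseline libraries (-0.51, adjusted p = 0.00607). The scaffold gene Iqgap1 stood at 0.75 (adjusted p = 0.0267). The call of Iqgap1 was fragile, lost without any of 5 libraries taken singly, with an adjusted p of up to 0.118 (without KO + STZ replicate 3).

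Of 20 genes of the podocyte actin cytoskeleton 4 rose and 2 fell (2 to 3 and 1 to 2 with 1 of the 6 compared libraries left out). Vim, the intermediate filament protein vimentin, was at 1859, 1557 and 2679 CPM in KO + STZ libraries, against 542, 581 and 782 CPM in control baseline libraries (1.68, SE 0.23, adjusted p = 0.00231). Dag1, the matrix receptor dystroglycan, stood at 0.95 (adjusted p = 0.00596), Nes, which encodes nestin, at 0.76 and the formin gene Inf2 at 0.73. Mtss1, which bends membranes and binds actin, was at 152, 170.3 and 189 CPM in KO + STZ libraries, against 314, 322 and 320.3 CPM in control baseline libraries (-0.90, adjusted p = 0.00355). Arhgap24, a Rac-inactivating protein of podocytes, averaged 354 ± 47.3 CPM in KO + STZ and 562 ± 108 CPM in control baseline (SD, n = 3 each, log2 fold change -0.67, adjusted p = 0.0246). Mtss1 and Arhgap24 fell on the knockout step, at -0.92 and -0.92, while Vim rose on it, at 1.30 (adjusted p = 0.0159). The calls of Nes (adjusted p = 0.0940 without control baseline replicate 2), Inf2 (0.175 without KO + STZ replicate 3) and Arhgap24 (0.0963 without KO + STZ replicate 3) were fragile.

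Among 16 podocyte transcription factors 0 rose and 2 fell, with a median of -0.25 and 12 of 16 negative. The 2 were the forkhead genes Foxd1 (-0.48, adjusted p = 0.0444) and Foxc1 (-0.56, adjusted p = 0.0479), both close to the threshold. The calls of Foxd1 (adjusted p = 0.160 without control baseline replicate 1) and Foxc1 (0.168 without KO + STZ replicate 3) were fragile. Of 16 genes of the DACH, EYA, SIX-family and PTIP groups 1 rose and 2 fell, 1 of them Dach1 itself. Eya4, a phosphatase and cofactor of the SIX-family proteins, was at 82.4, 82.2 and 107 CPM in KO + STZ libraries, against 16.1, 17.7 and 18.5 CPM in control baseline libraries (2.37, SE 0.18, adjusted p = 4.11e-05). It passed on the knockout step (1.87, adjusted p = 0.000314) and in the second pair (0.92, adjusted p = 0.0206). Eya1 was at 3.25, 2.94 and 2.49 CPM in KO + STZ libraries, against 5.72, 6.59 and 7.37 CPM in control baseline libraries (-1.18, adjusted p = 0.0306). The call of Eya1 was fragile, lost without any of 6 libraries taken singly, with an adjusted p of up to 0.128 (without KO + STZ replicate 3).

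Of 23 genes of the glomerular basement membrane and mesangial matrix 4 rose and 1 fell, with a median of 0.0019. Fn1, fibronectin, was at 186, 154 and 196 CPM in KO + STZ libraries, against 17.9, 23.8 and 24.4 CPM in control baseline libraries (3.02, SE 0.24, adjusted p = 5.78e-05, edgeR). Col4a6, a type IV collagen chain, was at 64.1, 62.9 and 75.1 CPM in KO + STZ libraries, against 25.003, 21.97 and 28.4 CPM in control baseline libraries (1.42, adjusted p = 0.000111). Fn1 and Col4a6 passed on the knockout step, at 2.96 and 1.16, and Npnt is the third of the 4. Lamb2, the laminin beta-2 chain of the mature filter, averaged 1003 ± 33.8 CPM in KO + STZ and 666 ± 73.2 CPM in control baseline (SD, n = 3 each, log2 fold change 0.59, adjusted p = 0.0144). The call of Lamb2 was fragile, lost without any of 3 libraries taken singly, with an adjusted p of up to 0.0814 (without control baseline replicate 2). Lamb1, the beta-1 chain, was at 135, 151 and 130.4 CPM in KO + STZ libraries, against 208, 256 and 269.5 CPM in control baseline libraries (-0.81, adjusted p = 0.00224), with its change on the STZ step (-0.97, adjusted p = 0.00446).

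The list of interstitial collagens, fibulins and small proteoglycans also held other matrix and adhesion genes, among them Adamtsl1, Itga11 and Postn. Of its 26 measured genes 4 rose (Adamtsl1, Itga11, Efemp1 and Ogn) and 2 fell, with a median of 0.037. Postn, the secreted adhesion protein periostin, was at 8.72, 7.92 and 7.14 CPM in KO + STZ libraries, against 18.2, 20.1 and 19.8 CPM in control baseline libraries (-1.29, SE 0.12, adjusted p = 0.000178). Postn was also low in KO baseline and control + STZ libraries, at 11.3, 9.73 and 9.29 and 6.37, 7.02 and 6.85 CPM, so control baseline stood above the other 3 groups. Col1a2, a type I collagen chain, averaged 123 ± 17.4 CPM in KO + STZ and 253 ± 96.2 CPM in control baseline (SD, n = 3 each, log2 fold change -1.03, adjusted p = 0.0211). The call of Col1a2 was fragile, lost without either of 2 libraries taken singly, with an adjusted p of up to 0.0963 (without KO + STZ replicate 3).

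Retinoic acid genes changed in both directions: of 15 measured, 3 rose and 2 fell (2 to 3 and 0 to 2 with 1 of the 6 compared libraries left out), with a median of -0.021. Besides Aldh1a1, Rdh10, the retinol dehydrogenase of the preceding step, was at 57.3, 43.7 and 44.3 CPM in KO + STZ libraries, against 14.8, 21.5 and 19.1 CPM in control baseline libraries (1.39, adjusted p = 0.0109). Cyp26a1, which degrades retinoic acid and is induced by it, was at 126, 63.1 and 96.9 CPM in KO + STZ libraries, against 5.33, 1.97 and 22.5 CPM in control baseline libraries (3.26, SE 0.72, adjusted p = 0.0235). The groups did not overlap, as for all called genes, and the controls spread widely. The receptor gene Rarg (-0.72, adjusted p = 0.0119) and the retinaldehyde reductase gene Dhrs3 (-0.74, adjusted p = 0.0125) fell. The calls of Cyp26a1 (adjusted p = 0.0925 without control baseline replicate 1), Rarg (0.0553 without control baseline replicate 2) and Dhrs3 (0.0647 without KO + STZ replicate 3) were fragile.

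Of 17 prostaglandin enzymes and receptors 4 rose and 2 fell, with a median of 0.17, while 4.27% of all genes rose and 2.84% fell. With 1 of the 6 compared libraries left out, 3 rose and 1 to 2 fell. Ptgfr, the prostaglandin F receptor, was at 224, 160.1 and 230.3 CPM in KO + STZ libraries, against 17.9, 23.2 and 11.97 CPM in control baseline libraries (3.53, SE 0.24, adjusted p = 3.01e-05). Ptgds, the lipocalin-type prostaglandin D synthase, was at 13.1, 17.9 and 16.3 CPM in KO + STZ libraries, against 3.38, 2.70 and 4.39 CPM in control baseline libraries (2.18, adjusted p = 0.00132). So the genes of both prostaglandin D synthases rose, and Hpgd, which breaks prostaglandins down, rose by 0.74 (adjusted p = 0.0483). The prostaglandin E receptor genes Ptger4 (33.7, 37.3 and 27.01 CPM in KO + STZ, against 70.98, 84.5 and 72.6 CPM in control baseline, -1.22) and Ptger2 (-1.65) fell, with adjusted p-values of 0.00751 and 0.0220. Ptgfr and Ptgds passed on the knockout step, at 2.53 and 1.67. The calls of Hpgd (adjusted p = 0.154 without KO + STZ replicate 1) and Ptger2 (0.0872 without KO + STZ replicate 3) were fragile.

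In growth factor pathways few members passed. Of 14 VEGF and angiopoietin genes 0 rose and 2 fell, with a median of -0.57 and 12 of 14 negative. Nrp1, a VEGF coreceptor, was at 1456, 1481 and 1153 CPM in KO + STZ libraries, against 2651, 2641 and 2659 CPM in control baseline libraries (-0.96, adjusted p = 0.00887), and Tek, the angiopoietin receptor, stood at -0.73 (adjusted p = 0.0211). The calls of Nrp1 (adjusted p = 0.0501 without KO + STZ replicate 3) and Tek (0.1003 without KO + STZ replicate 3) were fragile. Of 13 BMP genes 1 fell, the receptor gene Bmpr1b, at 4.65, 4.60 and 5.79 CPM in KO + STZ libraries, against 16.7, 11.4 and 10.7 CPM in control baseline libraries (-1.36, adjusted p = 0.00607). Its knockout step was -2.11 (adjusted p = 0.000756). Of 15 TGF-beta genes 1 rose, Tagln, the actin-binding protein transgelin, at 733, 339 and 1583 CPM in KO + STZ libraries, against 64.8, 64.4 and 138 CPM in control baseline libraries (3.31, SE 0.55, adjusted p = 0.00585). KO + STZ values of Tagln spread widely, and without replicate 3 the log2 fold change was 2.59. Tagln also counts among the arteriolar smooth muscle genes. Of 22 insulin and glucose genes 0 rose and 2 fell, the transcription factor gene Foxo1 (88.7, 99.7 and 90.9 CPM in KO + STZ, against 143, 161 and 175 CPM in control baseline, -0.78, adjusted p = 0.00359) and Tbc1d4 (-0.71, adjusted p = 0.0259), which controls glucose transporter traffic. The call of Tbc1d4 was fragile, lost without any of 5 libraries taken singly, with an adjusted p of up to 0.0994 (without control baseline replicate 2).

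Stress genes gave 1 list with several calls. Of 19 p53 response genes 5 rose and 0 fell, with a median of 0.32, while 4.27% of all genes rose. With 1 of the 6 compared libraries left out, 1 to 4 rose. Ccng1, cyclin G1, was at 295, 224 and 219.8 CPM in KO + STZ libraries, against 145, 137 and 138 CPM in control baseline libraries (0.82, SE 0.12, adjusted p = 0.00325). Aen, an apoptosis-enhancing nuclease, stood at 0.76, the RNA-binding protein gene Zmat3 at 0.55, the secreted stress cytokine gene Gdf15 at 2.29 and the receptor gene Eda2r at 1.64. All 5 had more of their change on the STZ step, from 0.49 for Zmat3 to 2.13 for Gdf15, although no single step value passed (adjusted p from 0.0504 to 0.106). No member passed among 16 endoplasmic reticulum stress, 18 oxidative stress, 19 fatty acid oxidation, 26 oxidative phosphorylation, 32 ribosomal protein or 15 immediate early genes. The 26 oxidative phosphorylation genes were all positive, with a median of 0.33 and a smallest adjusted p of 0.158. Their summed level was 8461 CPM in KO + STZ replicate 1, the library with the most tubule RNA. Replicates 2 and 3 were at 5118 and 5574 CPM, against 5170 to 5674 CPM in control baseline. Of 18 interferon-stimulated genes Ifi27l2a rose (1.49, adjusted p = 0.00692), and of 20 cell cycle genes Rrm2 (1.01, adjusted p = 0.0162). The cell cycle list had a median of 0.64 with 17 of 20 positive. Groups did not overlap for 8 of the 20, as for 31.5% of all genes. Without KO + STZ replicate 1, 8 members passed, against 0 without KO + STZ replicate 3 or control baseline replicate 1 or 3. The calls of Aen (adjusted p = 0.0532 without KO + STZ replicate 3), Zmat3 (0.0866 without control baseline replicate 2), Gdf15 (0.105 without control baseline replicate 2), Eda2r (0.124 without control baseline replicate 1) and Rrm2 (0.0701 without control baseline replicate 3) were fragile.

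Markers of the mesangium and the endothelium fell or did not pass, and none rose. Of 12 mesangial markers 0 rose and 5 fell, with a median of -0.78, while 2.84% of all genes fell. With 1 library left out, 1 (without KO + STZ replicate 3 or control baseline replicate 2) to 7 (without KO + STZ replicate 2) fell. Sfrp2, a secreted Wnt modulator, was at 426, 344 and 229.9 CPM in KO + STZ libraries, against 1088, 1339 and 1169 CPM in control baseline libraries (-1.85, SE 0.23, adjusted p = 0.00137). Des, the filament protein desmin, was at 190.1, 183 and 157 CPM in KO + STZ libraries, against 293, 335 and 267 CPM in control baseline libraries (-0.76, adjusted p = 0.0141). Cspg4 (-1.24), Gata3 (-1.32) and Ptn (-0.89) were the other 3. The calls of Des (adjusted p = 0.0727 without KO + STZ replicate 3), Cspg4 (0.118 without KO + STZ replicate 3), Gata3 (0.126 without KO + STZ replicate 3) and Ptn (0.0967 without control baseline replicate 1) were fragile. The summed mesangial level was 2646 to 3745 CPM in KO + STZ, against 4872 to 5982 CPM in control baseline, and control + STZ was as low, at 2189 to 3147 CPM. Of 17 endothelial markers 0 rose and 2 fell, Ehd3 (1236, 1643 and 1457 CPM in KO + STZ, against 3261, 3026 and 3109 CPM in control baseline, -1.12, adjusted p = 0.0135) and Tek. The summed endothelial level was 12337 to 13747 CPM in KO + STZ, against 19358 to 20229 CPM in control baseline, with 16 of 17 members negative, and 12429 to 14790 CPM in control + STZ. Nrp1 and Tek, the VEGF and angiopoietin genes that passed, fell alongside these sums. Their part in the lower genes was not tested. The call of Ehd3 was fragile, lost without either of 2 libraries taken singly, with an adjusted p of up to 0.0621 (without KO + STZ replicate 3).

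Of 9 smooth muscle and renin genes 1 rose (Tagln) and 1 fell (Smtn, -0.77), and their sum was 1719, 1084 and 2626 CPM in KO + STZ, against 1149, 1229 and 1583 CPM in control baseline, in which Tagln has a large share. Of 10 parietal cell genes Ncam1 fell (-1.06, adjusted p = 0.00440). No member passed among 25 proximal tubule or 18 later tubule genes. Of 16 macrophage and complement genes 0 rose and 1 fell, the mannose receptor gene Mrc1 (-1.25, adjusted p = 0.0228), while the median of the 16 was 1.38, 13 were positive and 11 had groups without overlap (31.5% of all genes). Without control + STZ replicate 1, which the fit shares but the comparison does not use, 9 of the 16 passed higher, and without any other single library 0 did. The summed macrophage level was 328, 716 and 713 CPM in KO + STZ, against 421, 488 and 385 CPM in control baseline, so the sums overlapped. The mean log2 CPM of the list did not, at 3.25, 4.47 and 4.44 in KO + STZ, against 2.73, 3.09 and 2.63 in control baseline. The calls of Smtn (adjusted p = 0.0503 without KO + STZ replicate 3) and Mrc1 (0.0981 without KO + STZ replicate 3) were fragile. C1qc, a complement C1q chain made by macrophages, was at 3.48, 20.3 and 13.999 CPM in KO + STZ libraries, against 1.39, 1.85 and 0.538 CPM in control baseline libraries (3.32, adjusted p = 0.107), which did not pass. Of 15 lymphocyte genes 4 were listed and of 9 red blood cell genes 7, and none passed.

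**Figure D5:**
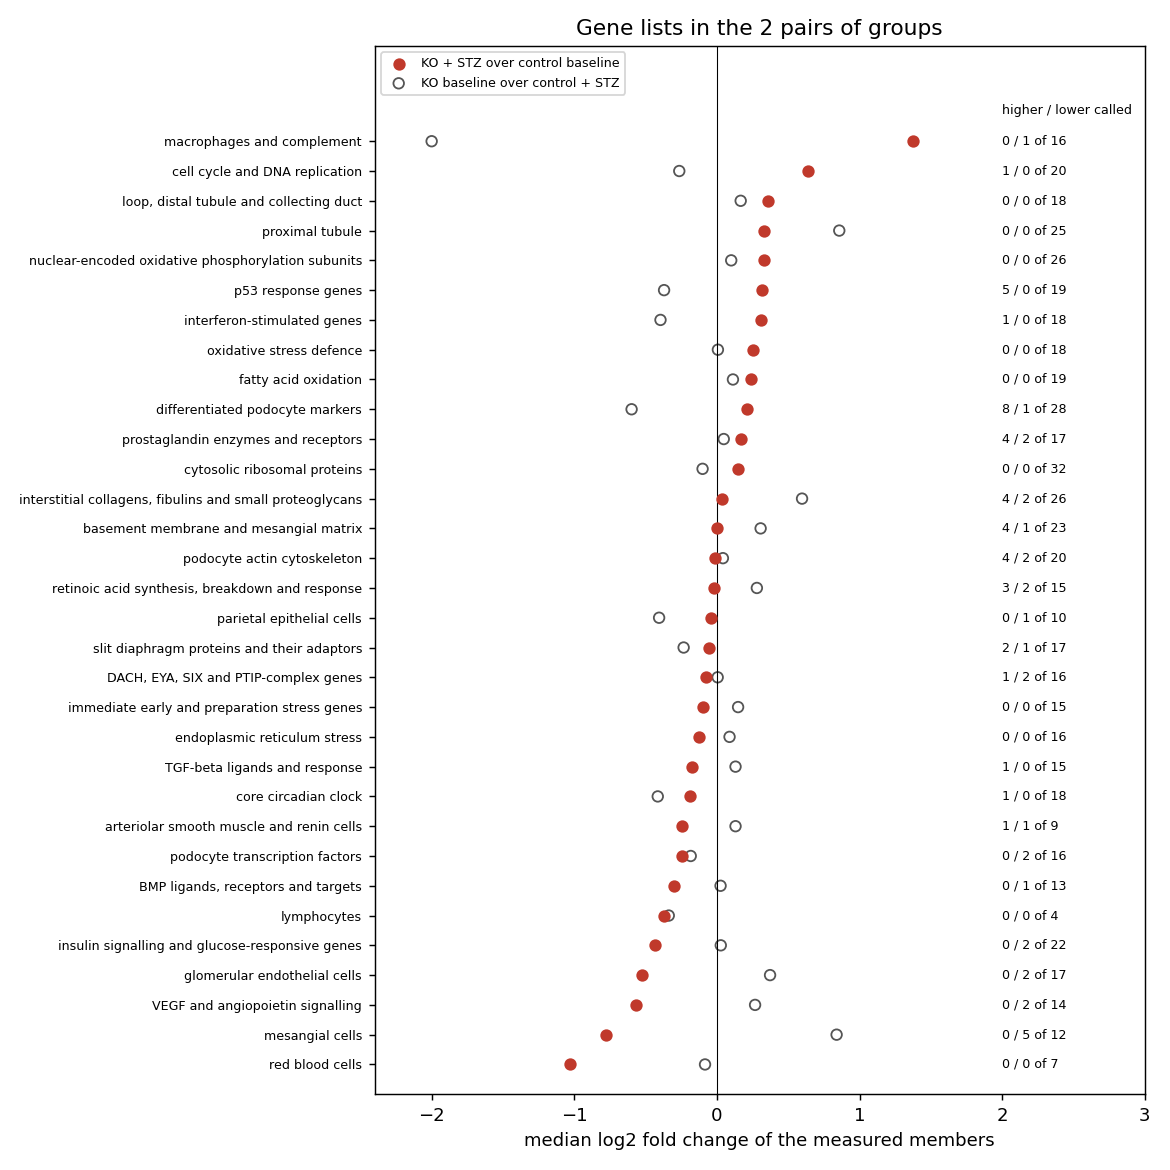
Median log2 fold change of the measured members of each gene list, with filled red points for KO + STZ over control baseline and open circles for KO baseline over control + STZ. Numbers at the right count members called higher and lower in KO + STZ of those measured; mesangial, endothelial and VEGF lists lie left of 0 in KO + STZ and right of 0 in the second pair.

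Whether the knockout difference was larger in diabetic than in untreated mice was asked with the interaction of the same fit. Only Adamtsl1 passed (1 of 13475 genes, 0.00742%, edgeR): its knockout step was 4.83 after STZ and 3.31 at baseline, a difference of 1.52 (SE 0.17, adjusted p = 0.0440). Adamtsl1 was at 50.2, 48.3 and 56.4 CPM in KO baseline libraries and 4.09, 4.23 and 4.92 CPM in control + STZ libraries, so both knockout groups were above both control groups. No gene passed with sex as a covariate or with the STZ libraries thinned to baseline depth, and 31 passed with DESeq2. With 1 library left out, genes passed only without replicate 2 of control baseline or of control + STZ. Parm1 had a larger difference of 2.86 that did not pass (adjusted p = 0.0578).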

How the data were processed

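RNA-seq of glomeruli from 12 mice, 3 in each of 4 groups, was analysed from 1 gene table per library, in which the authors deposited estimated counts per gene symbol, not scaled to depth. Values ending in 0.5 made up 10.5% to 11.5% of each library, all were rounded to whole numbers, and 18 blanks were taken as 0. BWA and mm10 are named, without role or version, per the submitters' processing notes. The sources used here do not give the counter, annotation or strand setting. STZ and baseline tables had been filtered differently, and 13475 genes listed in both were used, of which 13445 (99.8%) matched RefSeq symbols (GRCm38.p6). A total of 72204860 to 78631380 counts in KO + STZ, against 23305198 to 24925846 in control baseline, limits the precision of low genes mainly in controls.

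All 12 libraries were fitted with 4 group means in edgeR 4.0.16 (R 4.3.3, TMM factors, filterByExpr, quasi-likelihood test), and genes were called at a Benjamini-Hochberg adjusted p under 0.05 over all genes. Log2 fold changes are KO + STZ over control baseline unless stated, and SE derives from the F statistic. CPM were TMM-scaled over the 12 libraries. Steps, the interaction and the second pair of groups are contrasts of the same fit.

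The genes compared and the 33 gene lists were chosen with earlier results of these data known. Named genes were Dach1, the 12 largest called rises and falls whose groups did not overlap and averaged 1 CPM or more (1 clone name passed over), up to 8 genes called in both pairs per direction, and 4 members of smallest p per list. Another 12 called list members were named after their values were seen, as was C130060K24Rik. A few of the genes chosen are not reported here.

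Alternatives were RLE and upper-quartile factors, no low-count filter, DESeq2 1.42.0, the 6 libraries alone, sex and proximal tubule covariates, STZ libraries thinned to baseline depth, values rounded down, a test against 1.5-fold, and each library left out. The test was checked on simulated counts.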

Additional observations from a re-analysis of the deposited data

Results flagged for a closer look

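Adamtsl1 was the 1 gene whose knockout difference itself differed between the arms by test. The knockout step was 4.83 after STZ and 3.31 at baseline on the log2 scale, and the interaction of the 12-library fit was 1.52 (adjusted p = 0.0440, edgeR's quasi-likelihood test). All 3 KO + STZ libraries lay above all 3 KO baseline libraries, at 116 to 141 CPM and 48.3 to 56.4 CPM, while both control groups lay between 4.09 and 5.63 CPM. The interaction adjusted p was close to the threshold, and 0 genes passed it with the sex or the tubule covariate. With 1 library left out, 0 genes passed in every case but 2. These were the fits without control baseline replicate 2 (2 genes) and without control + STZ replicate 2 (1 gene).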

How the results depend on the processing

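None of the 959 genes that passed in KO + STZ against control baseline changed sign under any alternative run. Their groups did not overlap, so leaving out a library or rounding could hardly reverse a sign. Without KO + STZ replicate 3, 348 of the 959 were still called. Dach1 stayed past the threshold in every alternative for which its value was read, between -1.49 and -1.10 with 1 library left out. Its value in the 1.5-fold test was not read. Counts of calls moved more. On the 6 compared libraries alone 706 genes passed, and 604 of the 959 were still called. The comparison gave 1567 genes (736 lower) with DESeq2, 1664 (959 higher and 705 lower) with the proximal tubule covariate, 641 (228 lower) with sex as a covariate, and 163 (123 higher and 40 lower) when tested against 1.5-fold. Leaving out 1 library gave 351 to 1047 genes, 244 to 618 higher and 107 to 429 lower. The second pair of groups gave 892 genes with DESeq2, 81 on its 6 libraries alone, 689 with the tubule covariate, 111 with sex, 55 against 1.5-fold, and 112 to 343 with 1 library left out. Genes called in both pairs, in the order higher and same direction, higher and opposite, lower and same, lower and opposite, numbered 94, 80, 71 and 158 with DESeq2, 17, 1, 10 and 15 on 6 libraries a fit, 33, 1, 15 and 23 with sex, 18, 0, 7 and 9 against 1.5-fold, and 32 to 51, 1 to 20, 13 to 40 and 27 to 56 with 1 library left out. The tubule covariate gave 56, 54 and 128 for the last 3 of these, and thinning gave 11 for higher and opposite. The interaction was passed by 2 genes with RLE or upper-quartile factors, 31 with DESeq2, 0 with the tubule covariate, sex or thinning, and 0 to 2 with 1 library left out. The cause of these shifts was not tested. Of 96 called genes chosen for naming, 3 lost their call with RLE factors, 2 with upper-quartile factors, 15 on the 6 libraries alone, 9 with sex and 5 with thinning, and 41 lost it without at least 1 of the 6 compared libraries. Signs reversed in 4 genes, none called: Cyp2e1 was -0.28 with sex and ranged from -0.26 to 2.79 with 1 library left out, Slc22a30 from -0.17 to 2.204, Dusp1 from -0.80 to 0.024 and Cd79b from -0.25 to 0.070. No paired analysis was possible because the labels give no replicate number that the groups share. Depth limits low genes mainly in the baseline libraries. The alternatives on the interaction and on genes called in both pairs, and the leaving out of libraries from groups not compared, were chosen after seeing the data.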
